A study of Homo sapiens with 12 samples.

Results

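A set of 10 genes that a cell uses to take in, store and sense iron were followed in RNA-seq of A375 cells, an established human melanoma line. They were chosen by name from a fixed list of iron uptake, ferritin, ferritin turnover and iron regulatory protein genes, and they are 10 of the 20263 genes in the deposited table. All 10 passed the filter on low counts that left 14287 genes for testing. The 12 libraries were of wild-type A375 cells in 4 groups of 3: untreated cells (Ctrl), cells given DBIC, cells given hemin (Hemin) and cells given both (DBIC+Hemin). DBIC, which the study's text spells DdBIC, is a dodecyl ester of a benzimidazole carboxylic acid that the study uses to induce pyroptosis, a lytic form of cell death. Hemin is the ferric chloride form of heme and so carries iron into the cell. Serum in the medium was lowered during DdBIC treatment according to the study's general methods, which do not name the RNA-seq groups. The dose and duration of either agent in these libraries are not given in the sources used here, and no label says that the 3 libraries of a group came from separate cultures. The study's text speaks in general of independent experiments without tying the RNA-seq libraries to them, so p-values measure the spread between these libraries, which may be technical. The comparisons ask which of these genes respond to DBIC, which respond to hemin, and whether the response to DBIC is the same when hemin is present. In bulk RNA, fewer cells of a kind and less RNA per cell cannot be told apart.

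Cells take up transferrin-bound iron through the transferrin receptor, reduce it in the endosome and move it into the cytosol, where it is used, sent into mitochondria for heme and iron-sulfur clusters, or stored in ferritin cages. Iron regulatory proteins (IRPs) bind a short RNA hairpin, the iron-responsive element, when iron is scarce. Bound in the 3′ UTR of the receptor mRNA they protect it from decay, and bound in the 5′ UTR of the ferritin mRNAs they block translation, which RNA-seq does not measure.

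The hairpins through which this control runs are shown first because they separate the receptor from the ferritins. A search of the sense strand of annotated UTRs (GENCODE 29, GRCh38) for a bulged C, 5 bases, the loop CAGTGN and 5 bases able to pair with them, G-T pairs included, found 4 matches in the 3′ UTR of TFRC, 1 in the 5′ UTR of FTH1, 1 in the 5′ UTR of FTL, and none in the UTRs of the other 7 genes. Capitals mark the bulged C and the loop, and the sequences are written 5′ to 3′ as DNA.

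TFRC, first: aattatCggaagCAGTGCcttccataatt
TFRC, next: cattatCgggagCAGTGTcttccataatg
TFRC, then: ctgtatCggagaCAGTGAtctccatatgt
TFRC, last: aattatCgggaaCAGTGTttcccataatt
FTH1: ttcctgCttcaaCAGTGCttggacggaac
FTL: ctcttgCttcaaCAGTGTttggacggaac

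In the order printed, the TFRC matches lie on the minus strand at chr3:196050979-196051007, chr3:196050575-196050603, chr3:196050510-196050538 and chr3:196050463-196050491. The FTH1 match lies on the minus strand at chr11:61967574-61967602 and the FTL match on the plus strand at chr19:48965335-48965363. The same pattern occurred in the 5′ UTR of 31 of 18654 genes (0.166%) and in the 3′ UTR of 127 of 18985 genes (0.669%). With 4 matches, TFRC had more than any other scanned 3′ UTR, the next being SLC35E2A with 3. A match is a description of the letters and not a test of binding. No match, as for SLC11A2, says only that these letters are not in those UTRs. Hairpins of other letters were not sought, so it does not show that a gene lacks an iron-responsive element.

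The table placed TFRC (ENSG00000072274) at chr3:196027183-196082189, FTH1 (ENSG00000167996) at chr11:61959718-61967660 and FTL (ENSG00000087086) at chr19:48965301-48966878. SLC11A2 (ENSG00000110911) was placed at chr12:50979401-51028566, ACO1 (ENSG00000122729) at chr9:32384603-32454769 and FBXL5 (ENSG00000118564) at chr4:15604539-15681619. All are protein-coding genes. GENCODE 29 lists 25 pseudogenes named for FTH1 and 16 named for FTL, none of which has a row in the table, and how reads shared with them were counted is not given in the sources used here. Exons of FTH1 overlap BEST1 on the opposite strand, and exons of FBXL5 overlap FAM200B.

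The libraries held 37951275 to 44358912 counts, so that 3 counts, the limit that a count of 0 allows, correspond to 0.0676 to 0.079 CPM (counts scaled to library size). Replicate libraries correlated across genes at r = 0.985 to 0.988 on the log2 CPM scale, and no 2 libraries agreed within counting noise. The melanocyte lineage gene SOX10 stood at 551 to 762 CPM and the dedifferentiation marker AXL at 450 to 558 CPM, whereas the pigment genes TYR (at most 0.0516 CPM) and MLANA (at most 0.438 CPM) were near 0. Of the immune markers PTPRC had no count in any library and CD68 stood at 20.2 to 29.3 CPM. Of the erythroid markers HBB had no count and EPOR stood at 4.44 to 8.82 CPM, and the erythroid list summed to 8.38 to 8.92 CPM in Ctrl, 7.54 to 8.48 with DBIC, 4.44 to 5.72 with hemin and 6.01 to 7.32 with both. Its part in the hemin results was not tested. The 3 endothelial markers summed to at most 2.01 CPM. The epithelial list was carried by the keratins KRT8 and KRT18 (EPCAM at most 0.244 CPM) and summed to 861 to 913 CPM in Ctrl, 951 to 980 with DBIC, 886 to 905 with hemin and 885 to 932 with both. The melanocytic list summed to 655 to 679, 742 to 795, 577 to 588 and 579 to 664 CPM in the same order. Both sums were highest in the DBIC libraries. The undifferentiated melanoma list summed to 705 to 736 CPM in Ctrl, 670 to 704 with DBIC, 743 to 775 with hemin and 736 to 756 with both, lowest in the DBIC libraries. The part of these markers in the DBIC results was not tested. HMOX1, the heme-degrading enzyme that heme induces, served as a check of the hemin labels. It was at 8.71 ± 0.632 CPM in Ctrl, 7.82 ± 0.795 with DBIC, 63.2 ± 2.0 with hemin and 169 ± 21.4 with both (SD, n = 3), so every hemin library lay above every library without hemin.

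Per transcript length, which is the scale on which different genes can be compared, ferritin led. On the deposited TPM scale (scaled for transcript length and library) FTL stood at 2570.2 ± 65.8 and FTH1 at 1565 ± 136 in Ctrl, against 255 ± 23.0 for TFRC (SD, n = 3). The next levels in Ctrl were 69.7 ± 1.63 TPM for NCOA4, 49.3 ± 9.86 for FBXL5, 44.7 ± 0.481 for SLC25A37 and 35.2 ± 1.93 for IREB2. The lowest were SLC11A2 (13.3 ± 0.361 TPM), ACO1 (7.35 ± 2.16) and STEAP3 (5.14 ± 0.290). Of the neighbours in this order, FBXL5 (37.97 to 55.7 TPM) and SLC25A37 (44.2 to 45.2 TPM) overlapped in Ctrl, and the others did not. FTH1 and FTL kept their order in every group, the gap narrowing from Ctrl to DBIC+Hemin.

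**Figure D1:**
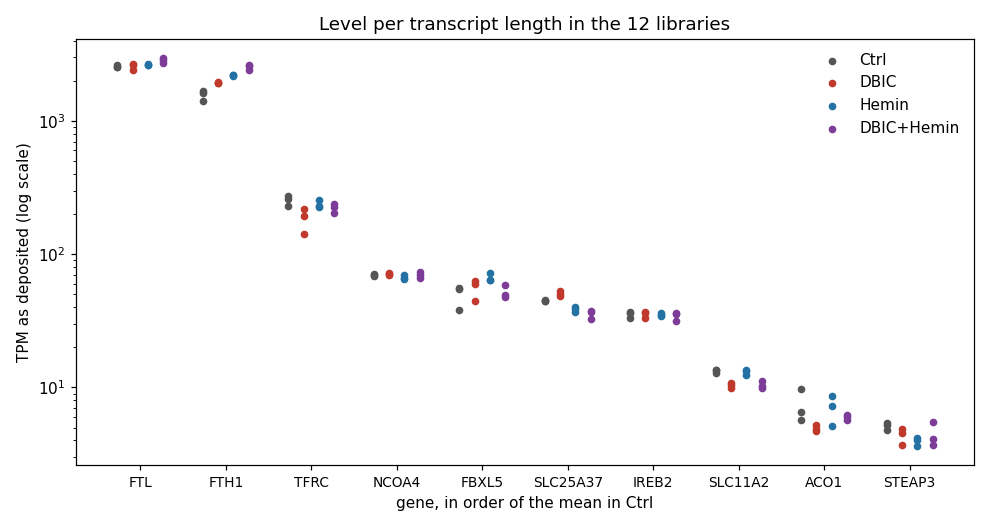
Deposited TPM (log scale) of the 10 genes in each of the 12 libraries, with genes ordered by their Ctrl mean and points coloured by group. FTL and FTH1 lie highest, TFRC lies between 141 and 275 in every library, and SLC11A2, ACO1 and STEAP3 lie lowest.

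DBIC lowered the transferrin receptor and the endosomal iron transporter and raised ferritin heavy chain, and it lowered IRP1 while raising FBXL5. Against Ctrl, 2 of the 10 genes rose (FTH1 and FBXL5) and 3 fell (TFRC, SLC11A2 and ACO1). The TFRC call was lost in some alternatives, as given below. Across all 14287 genes 37.2% changed in this comparison, 20.0% higher and 17.2% lower, and the share of the 10 genes, 5 of 10, is to be read against that background. The median log2 fold change of the 10 genes was -0.01, as was that of all genes.

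Hemin alone raised 2 of the 10 genes, FTH1 and FBXL5. It lowered 0 by edgeR, 0 at an unadjusted p under 0.05 and 0 by DESeq2. The background here was small, with 4.06% of genes changed, 1.47% higher and 2.59% lower. The median of the 10 genes was -0.04 on the log2 scale, against 0.00257 for all genes. Hemin given with DBIC, against DBIC alone, raised FTH1, FTL, SLC11A2 and ACO1 and lowered SLC25A37, where 31.9% of all genes changed, 13.5% higher and 18.4% lower. Of the 12 fits that left out 1 library, 9 lost the SLC11A2 call and 5 lost the SLC25A37 call. The median of the 10 genes was 0.11 and that of all genes -0.01. Where libraries of 2 groups are said below not to overlap, the share of all tested genes without overlap, in either direction, was 50% for DBIC against Ctrl, 25.1% for Hemin against Ctrl, 44.2% for DBIC+Hemin against DBIC, 26.3% for DBIC+Hemin against Hemin and 31% for DBIC+Hemin against Ctrl. These comparisons share libraries, since every group enters more than 1 of them, so their values are not independent of each other.

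**Figure D2:**
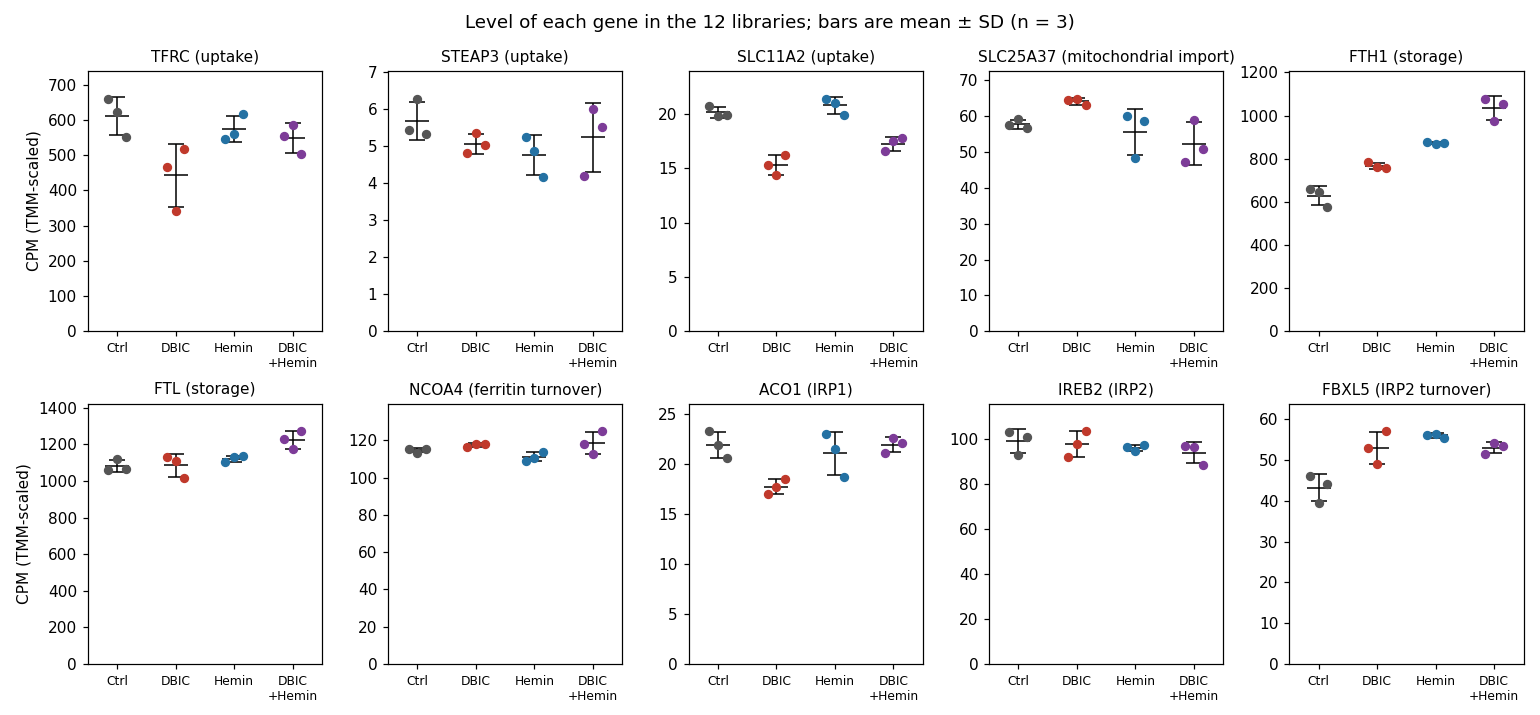
TMM-scaled CPM of each gene in the 12 libraries (points) with the group mean and SD (bars, n = 3), each panel on its own axis from 0. FTH1 steps up through the 4 groups, TFRC and SLC11A2 are lowest with DBIC alone, and NCOA4 and IREB2 lie nearly level.

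TFRC, the transferrin receptor, stood at 660.4, 622 and 552 CPM in the 3 Ctrl libraries and at 467, 342 and 518 CPM in the 3 DBIC libraries. All DBIC libraries lay below all Ctrl libraries, a separation in either direction that 50% of all tested genes show in this comparison, and DBIC replicate 2 lay far below the other 2. TFRC fell by 27.6% with DBIC (log2 fold change -0.47, SE 0.14, edgeR adjusted p = 0.0248). The call was lost without Ctrl replicate 1 (adjusted p = 0.0809), without Ctrl replicate 2 (0.0646) and when Ctrl and DBIC were fitted alone (0.0966), over 19 alternatives with adjusted p from 0.00119 to 0.0966. With hemin TFRC was at 547, 559 and 617 CPM, inside the Ctrl range but for the lowest library (log2 -0.09, 95% interval -0.40 to 0.22, adjusted p = 0.82). With both agents it was at 555, 586 and 503 CPM, where DBIC replicate 3 lies within the group's range, and the difference from DBIC alone was 0.31 on the log2 scale (95% interval -0.0014 to 0.62, adjusted p = 0.122). That difference passed the threshold with DESeq2 (adjusted p = 0.0428) and in edgeR without DBIC replicate 3 (0.0406), and its adjusted p reached 0.281 over the 19 alternatives. Its size ranged from 0.16 to 0.44 in the fits that left out 1 library.

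STEAP3, the ferrireductase of the endosome, was the least abundant of the 10 at 4.16 to 6.27 CPM over all libraries and passed no test. The Hemin libraries (4.16 to 5.24 CPM) lay below the Ctrl libraries (5.32 to 6.27 CPM), as 25.1% of all tested genes were without overlap in that comparison. Its log2 fold changes were -0.17 with DBIC (95% interval -0.47 to 0.14) and -0.25 with hemin (95% interval -0.56 to 0.05), intervals wide enough to hold a drop as large as that of SLC11A2 with DBIC (-0.40). Leaving out 1 library, these STEAP3 values ranged from -0.21 to -0.09 with DBIC and from -0.33 to -0.17 with hemin.

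SLC11A2 (DMT1) carries ferrous iron out of the endosome. It was at 20.7, 19.8 and 19.9 CPM in Ctrl and at 15.3, 14.4 and 16.2 CPM with DBIC, with a clear gap between the groups. SLC11A2 fell by 24.05% with DBIC (log2 -0.40, SE 0.059, adjusted p = 0.000323), a call kept in all 19 alternatives. Hemin alone left it at 21.4, 21.0 and 19.9 CPM (log2 0.04, 95% interval -0.08 to 0.17). With both agents it was at 16.5, 17.5 and 17.7 CPM, above every DBIC library and below every Ctrl and Hemin library. On the deposited TPM scale this intermediate level was not seen, with 9.98 to 10.8 TPM with DBIC and 9.89 to 11.1 with both, against 12.9 to 13.5 in Ctrl. The factor between count and TPM, once scaled to each library, differed up to 1.25 times between libraries for SLC11A2. On the count scale, the 3 differences of that level were small and their calls fragile. The rise over DBIC alone was 0.17 (adjusted p = 0.0428) and held in only 3 of the 12 fits that left out 1 library, those without DBIC replicate 3, Hemin replicate 3 or DBIC+Hemin replicate 1 (adjusted p up to 0.136 in the others). The drop against Hemin was -0.27 (adjusted p = 0.0196), lost without Hemin replicate 1, Hemin replicate 2 or DBIC+Hemin replicate 1 (up to 0.0808). The drop against Ctrl was -0.22 (adjusted p = 0.0314), lost without any 1 of the Ctrl libraries or without DBIC+Hemin replicate 1 or 2 (up to 0.105). Fitting only the 2 groups compared ended all 3 calls (adjusted p = 0.0929, 0.0628 and 0.0630), and the rise over DBIC alone was also lost with library size scaling and with no filter on low counts.

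SLC25A37 (mitoferrin-1) imports iron into mitochondria for heme and iron-sulfur clusters. It stood at 57.6, 59.1 and 56.6 CPM in Ctrl and at 64.7, 64.9 and 63.0 CPM with DBIC, groups that did not overlap, as was so for 50% of all tested genes, and the difference did not pass the test (log2 0.15, 95% interval -0.04 to 0.34, adjusted p = 0.201). It passed when only these 2 groups were fitted (adjusted p = 0.0201, against 0.0201 to 0.448 over the 19 alternatives). With hemin the libraries spread to 60.0, 48.4 and 58.6 CPM, and with both agents to 47.4, 58.9 and 50.8 CPM. SLC25A37 fell by 18.5% when hemin was added to DBIC (log2 -0.29, SE 0.087, adjusted p = 0.0237). This call was lost without any 1 of the DBIC libraries or without DBIC+Hemin replicate 1 or 3 (adjusted p up to 0.0917), and with upper-quartile scaling (0.0610). On the deposited TPM scale the 3 Hemin libraries (37.0 to 39.9) and the 3 DBIC+Hemin libraries (32.4 to 37.7) lay below the 3 Ctrl libraries (44.2 to 45.2), an order the CPM values do not show. The factor between count and TPM, once scaled to each library, differed up to 1.28 times between libraries for this gene, and the reason was not tested.

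FTH1, the ferritin heavy chain that oxidizes ferrous iron for storage, was the only one of the 10 called in all 5 comparisons of groups. It was at 661, 647 and 578 CPM in Ctrl, at 783, 763 and 755 with DBIC, at 879, 867 and 874 with hemin, and at 1078, 974 and 1052 with both. In none of the 5 comparisons did the libraries of the groups compared overlap, to be read against the shares of all tested genes given above. FTH1 rose by 22.0% with DBIC (log2 0.29, SE 0.049, adjusted p = 0.000804) and by 38.95% with hemin (log2 0.47, SE 0.049, adjusted p = 0.000452), both kept in all 19 alternatives. Both agents together gave a rise of 64.6% over Ctrl (log2 0.72, SE 0.049, adjusted p = 5.66e-06), and hemin added to DBIC gave 0.43 (adjusted p = 6.13e-05). DBIC added to hemin gave 0.24 (adjusted p = 0.0122), a call lost without DBIC+Hemin replicate 1 (adjusted p = 0.0541, and 0.000303 to 0.0541 over the 19 alternatives). The rise with DBIC did not differ detectably with hemin present, the interaction (the DBIC effect with hemin minus that without) being -0.04 with a 95% interval of -0.19 to 0.11 (adjusted p = 0.747).

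FTL, the ferritin light chain that nucleates the iron core, moved less. It was at 1060.2, 1119 and 1068 CPM in Ctrl, at 1131, 1110.5 and 1014 with DBIC, and at 1102, 1129.0 and 1134 with hemin, groups that overlap. With both agents it was at 1229.5, 1175 and 1270.4 CPM, above all other libraries. The light chain showed no called change with DBIC alone (log2 0.00397, 95% interval -0.09 to 0.10) or with hemin alone (0.05, 95% interval -0.04 to 0.14). It rose by 12.9% when hemin was added to DBIC (log2 0.17, SE 0.042, adjusted p = 0.00879, kept in all 19 alternatives) and by 13.2% with both agents against Ctrl (log2 0.18, SE 0.042, adjusted p = 0.0187). The latter call was lost without Ctrl replicate 1 or 3 and without DBIC+Hemin replicate 1 or 3 (adjusted p up to 0.0704).

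The ratio of heavy to light chain mRNA within a library does not depend on how libraries are scaled to each other. Taken from TPM, it was 0.609 ± 0.052 in Ctrl, 0.754 ± 0.029 with DBIC, 0.831 ± 0.011 with hemin and 0.894 ± 0.03 with both (SD, n = 3). The ranges were 0.557 to 0.661, 0.736 to 0.787, 0.821 to 0.843 and 0.873 to 0.929, so that no 2 groups overlapped. This ratio restates the FTH1 and FTL values and carries no test of its own. BEST1, whose exons overlap FTH1 on the other strand, was at 10.5 to 12.7 CPM in Ctrl, 21.0 to 27.7 with DBIC, 17.3 to 17.8 with hemin and 23.4 to 28.2 with both, and its part in the FTH1 counts was not tested. The lowest FTH1 library stood at 578 CPM.

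**Figure D3:**
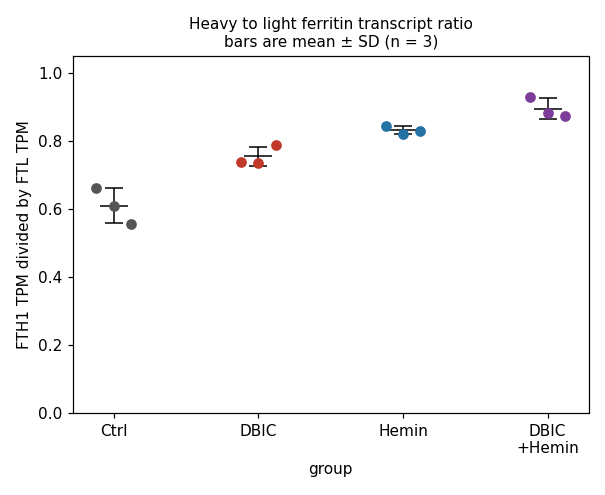
FTH1 TPM divided by FTL TPM in each library (points), with the mean and SD of each group (bars, n = 3) on an axis from 0. The ratio rises from 0.609 in Ctrl to 0.894 with both agents, and the 4 groups do not overlap.

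NCOA4, the receptor that delivers ferritin to lysosomes for iron release, moved little. It ranged from 109 to 125 CPM over the 12 libraries and passed no test after adjustment. In DBIC+Hemin against Hemin its 95% interval lay above 0 (log2 0.09, interval 0.01 to 0.17, edgeR unadjusted p = 0.0286, adjusted p = 0.181). The DBIC libraries (116 to 118 CPM) lay just above the Ctrl libraries (113 to 115 CPM), with a log2 difference of 0.03 (95% interval -0.04 to 0.11, adjusted p = 0.492). The intervals against Ctrl exclude a change as large as that of FTH1 in any of the 3 treated groups, the widest bounds being -0.12 and 0.13.

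ACO1 encodes IRP1, which is cytosolic aconitase when it holds an iron-sulfur cluster and binds RNA when it does not. It was at 23.2, 21.9 and 20.6 CPM in Ctrl and at 17.0, 17.7 and 18.5 CPM with DBIC, without overlap. ACO1 fell by 19.1% with DBIC (log2 -0.31, SE 0.077, adjusted p = 0.00909). With hemin it was at 22.95, 21.5 and 18.7 CPM, and with both agents at 21.1, 22.5 and 22.1 CPM, back within the Ctrl range. The rise on adding hemin to DBIC was 0.31 (SE 0.077, adjusted p = 0.0103). These 2 calls were kept in all 19 alternatives. The deposited TPM values of ACO1 gave the same order of Ctrl (5.74 to 9.81) and DBIC (4.72 to 5.19). However, the factor between count and TPM differed up to 1.62 times between libraries for this gene.

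IREB2 encodes IRP2, which is controlled mainly by protein decay. Its mRNA ranged from 88.6 to 103 CPM and passed no test, with group means of 99.1 ± 5.32, 97.7 ± 5.74, 96.1 ± 1.42 and 94.0 ± 4.64 CPM in Ctrl, DBIC, Hemin and DBIC+Hemin (SD, n = 3). The largest of its differences from Ctrl was -0.08 on the log2 scale (95% interval -0.19 to 0.04) with both agents.

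FBXL5 is the iron-sensing subunit of the ubiquitin ligase that marks IRP2 for decay. It was at 46.1, 39.5 and 44.1 CPM in Ctrl, at 52.9, 49.0 and 57.0 with DBIC, at 56.2, 56.5 and 55.5 with hemin, and at 51.6, 54.2 and 53.5 with both. Every treated library lay above every Ctrl library, where 50% (DBIC), 25.1% (Hemin) and 31% (both) of all tested genes were without overlap with Ctrl. FBXL5 rose by 22.55% with DBIC (log2 0.29, SE 0.063, adjusted p = 0.00372), by 29.7% with hemin (log2 0.38, SE 0.063, adjusted p = 0.00737) and by 22.8% with both (log2 0.30, SE 0.063, adjusted p = 0.0106), and each call was kept in all 19 alternatives. Unlike FTH1, it showed no called further rise when the agents were combined, with 0.00274 for hemin added to DBIC (95% interval -0.14 to 0.14) and -0.08 for DBIC added to hemin (95% interval -0.22 to 0.06). On the TPM scale only hemin was clear of Ctrl. The values were 37.97 to 55.7 in Ctrl, 44.7 to 63.1 with DBIC, 64.0 to 72.3 with hemin and 47.4 to 58.9 with both. The factor between count and TPM differed up to 1.41 times between libraries for this gene. FAM200B, which shares exon sequence with FBXL5 on the other strand, was at 18.4 to 20.8 CPM in Ctrl, 14.5 to 16.2 with DBIC, 18.6 to 20.2 with hemin and 14.9 to 16.4 with both, and its part in the FBXL5 counts was not tested.

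**Figure D4:**
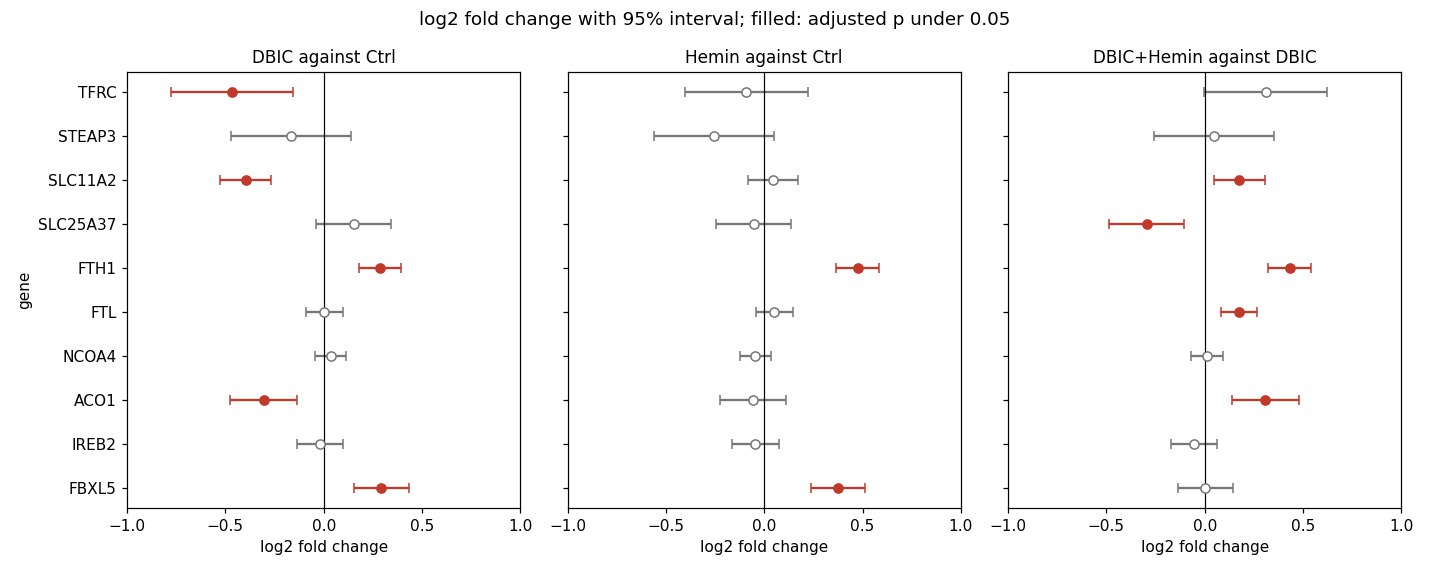
log2 fold change (x axis) of the 10 genes (y axis) in 3 comparisons, with 95% intervals and filled points where the edgeR adjusted p was under 0.05. FTH1 is to the right in all 3 panels, TFRC, SLC11A2 and ACO1 are filled and to the left in the DBIC panel, and FBXL5 is to the right with either agent alone.

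The last comparisons ask what DBIC does when hemin is present. DBIC+Hemin against Hemin changed 6.80% of all genes, 3.71% higher and 3.09% lower, and of the 10 genes FTH1 rose and SLC11A2 fell. Against Ctrl, DBIC+Hemin changed 12.4% of all genes, 5.66% higher and 6.74% lower, and of the 10 genes FTH1, FTL and FBXL5 rose and SLC11A2 fell. Of these calls on the 10 genes, only those of FTH1 and FBXL5 against Ctrl were kept in every alternative. The interaction passed the threshold in 16.6% of all genes, 6.40% positive and 10.2% negative, and in 2 of the 10 genes. For ACO1 it was 0.36 (SE 0.11, adjusted p = 0.0423), from -0.31 without hemin to 0.06 with hemin. For FBXL5 it was -0.37 (SE 0.089, adjusted p = 0.0151), from 0.29 to -0.08. The ACO1 interaction was lost in 9 of the 12 fits that left out 1 library (adjusted p up to 0.096) and held only without Ctrl replicate 3, DBIC replicate 3 or Hemin replicate 1, whereas the FBXL5 interaction held in all 18 alternatives. For TFRC the interaction was 0.40 with a 95% interval of -0.04 to 0.84 (adjusted p = 0.215), and it ranged from 0.25 to 0.53 in the fits that left out 1 library. The lower TFRC level with DBIC is thus not shown to differ by hemin, nor is that of SLC11A2 (0.13, 95% interval -0.05 to 0.31).

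**Figure D5:**
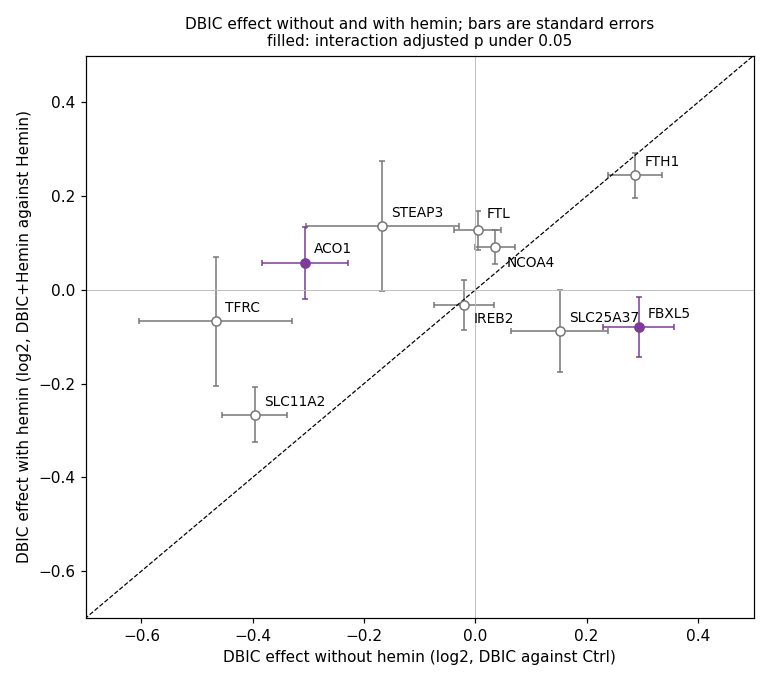
The log2 effect of DBIC without hemin (x axis) against that with hemin (y axis) for the 10 genes, with standard errors, the dashed line marking equal effects and filled points an interaction with adjusted p under 0.05. FTH1 lies near the line, and ACO1, FBXL5 and TFRC lie away from it with effects near 0 when hemin is present, TFRC with the widest errors of the 3 and an interaction that did not pass. STEAP3 and SLC25A37 also lie off the line, with effects of opposite sign without and with hemin and interactions that did not pass.

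Other genes of iron handling were read from lists given by function, and genes printed beyond the naming rule to complete a count (HFE, TF, PICALM, RB1CC1, ISCA1, CIAPIN1 and EPAS1) were chosen after their values were seen. Of 15 tested genes of iron transport, export and reduction, DBIC raised SLC25A28 (mitoferrin-2) by 0.22 and PCBP2, a cytosolic iron chaperone, by 0.07 on the log2 scale. It lowered BDH2, a siderophore synthesis enzyme (-0.53, 7.75 ± 0.448 to 5.36 ± 0.244 CPM), HFE (-1.02) and TF (-0.35), so that 5 of 15 changed where 37.2% of all genes did. With hemin alone, edgeR called 0 of the 15, DESeq2 called 0, and 1 had an unadjusted p under 0.05. Hemin added to DBIC raised BDH2 (0.34) and the iron chaperone PCBP1 (0.08) and lowered the heme exporter FLVCR1 (-0.18), 3 of 15 where 31.9% of all genes changed. The list's median was -0.12 with DBIC and 0.08 with hemin added to DBIC. The iron exporter SLC40A1 and the hepatic hormone HAMP were below the filter.

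The partners of these genes in receptor recycling, ferritin turnover and IRP2 decay were tested as a list of 20. Of these, 9 fell and 2 rose (PICALM and RB1CC1) with DBIC, and with hemin added to DBIC 8 rose and 2 fell (CUL1 and RB1CC1). Over all genes, 17.2% were lower and 20.0% higher with DBIC, and 13.5% were higher and 18.4% lower with hemin added to DBIC. With hemin alone edgeR called 0, DESeq2 called 1, and 2 had an unadjusted p under 0.05. AP2M1, the adaptor subunit that binds the receptor's internalization signal, went from 352 ± 5.93 CPM in Ctrl to 294 ± 1.96 with DBIC and 342 ± 3.90 with both (SD, n = 3). Its log2 fold changes were -0.26 with DBIC (adjusted p = 6.01e-06) and 0.22 with hemin added to DBIC. LAMP1, a lysosomal membrane protein, fell with DBIC (-0.23) and rose with hemin added to DBIC (0.26), and ATG9A, an autophagy lipid scramblase, fell with DBIC (-0.23). SNX3, which recycles the transferrin receptor, rose with hemin added to DBIC (0.30), and CUL1, the scaffold of the ligase that holds FBXL5, fell (-0.37). The list's median was -0.12 with DBIC and 0.11 with hemin added to DBIC, with all-gene medians of -0.01 in each. The interaction passed as positive in 6 of the 20, where 6.40% of all genes were positive and 10.2% negative. It passed as negative in 0 by edgeR and in 1 by DESeq2, and 1 was negative at an unadjusted p under 0.05.

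Of the other transcripts known to carry an iron-responsive element, 4 were tested. With DBIC alone or hemin alone, 0 passed by edgeR, by DESeq2 or at an unadjusted p under 0.05. CDC14A fell when hemin was added to DBIC (-0.34, adjusted p = 0.0101), and EPAS1 (HIF-2α) rose with both agents against Ctrl (0.34, adjusted p = 0.0459). Of 22 tested genes of iron-sulfur cluster assembly, DBIC raised NDOR1 (0.26), IBA57 (0.22) and ISCA1 (0.17) and lowered FDXR, the ferredoxin reductase (-0.22), a share of 4 of 22 where 37.2% of all genes changed. Hemin added to DBIC moved NDOR1 (-0.30), IBA57 (-0.24) and FDXR (0.29) the other way and raised CIAPIN1 (0.19), again 4 of 22, where 31.9% of all genes changed. With hemin alone edgeR called 0 of the 22, DESeq2 called 1, and 2 had an unadjusted p under 0.05.

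FTH1 and HMOX1 are also known targets of NRF2 and of the heme-binding repressor BACH1, so that pathway was read beside them. The list held none of the 10 genes. Of the 2 ferritin genes, FTH1 rose with hemin alone (0.47) and FTL showed no called change (0.05). Hemin alone raised 3 of 16 tested genes and lowered 0 (0 by DESeq2, 1 at an unadjusted p under 0.05), where 1.47% of all genes were higher and 2.59% lower. Those raised were HMOX1 (2.86), GCLM of glutathione synthesis (0.62, 53.3 ± 5.35 to 81.6 ± 10.5 CPM) and the cystine transporter SLC7A11 (0.18). DBIC raised the small Maf partner MAFK (1.17, 50.6 ± 4.64 to 113 ± 8.39 CPM) and BACH1 itself (1.08, 33.0 ± 4.87 to 70.05 ± 4.62 CPM) and lowered NQO1 (-0.18), the quinone reductase. Hemin added to DBIC raised 9 of the 16 and lowered 2, MAFK (-0.92) and BACH1 (-0.72), where 13.5% of all genes were higher and 18.4% lower. Among those raised were HMOX1 (4.43) and MAFG (1.95, SE 0.58, 31.9 ± 1.01 CPM with DBIC to 124 ± 4.79 with both), which varied widely in the groups outside this comparison (86.4 ± 48.4 CPM in Ctrl and 78.2 ± 45.6 with hemin). The list's median was 0.09 with hemin and 0.23 with hemin added to DBIC.

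The genes whose log2 CPM followed the receptor and the ferritins most closely over the 12 libraries, among 10671 genes, are given as a description, since all share the same libraries and groups. For TFRC they were TMEM126A (r = 0.959), RPS10 (r = 0.922) and FOCAD (r = 0.912). RPS10 went from 549 ± 8.64 CPM in Ctrl to 466 ± 56.7 with DBIC, with a wide spread among the DBIC libraries like that of TFRC. For FTH1 they were MAT2A (r = 0.979), MISP (r = 0.953) and GARS (r = 0.953), with MAT2A at 486 ± 6.45, 542 ± 4.12, 589 ± 10.2 and 642 ± 15.8 CPM in Ctrl, DBIC, Hemin and DBIC+Hemin (SD, n = 3). For FTL they were TUBB4B (r = 0.964), MRPS2 (r = 0.946) and RPL12 (r = 0.945).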

How the data were processed

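RNA-seq of 12 A375 libraries was analysed, grouped by the treatment label. The authors deposited raw counts per gene, TPM values scaled by length and depth, and FPKM values, which were not used. Per the labels' processing notes, Trim Galore, Subread, featureCounts and hg38 were used; versions and strand setting are not given in the sources used here. Counts were tested with edgeR 4.0.16 (R 4.3.3, limma 3.58.1): filterByExpr, TMM, robust quasi-likelihood fit with 1 mean per group over all libraries (8 residual degrees of freedom), F tests, Benjamini-Hochberg adjustment over all 14287 genes, threshold 0.05. Standard errors were taken as the size of the log2 fold change divided by the square root of F. The fit was tested on simulated data. CPM values use TMM-scaled library sizes.

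The 10 genes and all lists were chosen with earlier results of these data known. From each list, the 3 genes with the largest absolute change among those called, with a mean of at least 5 CPM, were named in DBIC against Ctrl, Hemin against Ctrl and DBIC+Hemin against DBIC. For TFRC, FTH1 and FTL, the 3 genes with the highest Pearson r were named (log2 CPM, prior count 2). Alternatives were DESeq2 1.42.0, upper-quartile or library-size scaling, no filter or at least 10 counts in every library, a fit of the compared groups alone, a block for the replicate number, and leaving out each library. Hairpins were sought in GENCODE 29 UTRs of coding transcripts. Intervals are 95% intervals and cover the spread between libraries only.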

Additional observations from a re-analysis of the deposited data

Results flagged for a closer look

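For 2 of the 10 genes, the effect of DBIC with hemin differed from that without hemin by the interaction term of the edgeR fit. The difference was 0.36 on the log2 scale for ACO1 (adjusted p = 0.0423), which was lost in 9 of the 12 fits that left out 1 library. It was -0.37 for FBXL5 (adjusted p = 0.0151), which was kept in all 18 alternatives run. Of all tested genes, 16.6% passed the same test.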

How the results depend on the processing

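Of 20 calls on the 10 genes, 12 were kept in every alternative, and no called value changed sign in any. Over 1243 values, including those of HMOX1, 1160 kept direction and side of the threshold, 48 lost the call, 4 gained one and 31 changed sign without a call. Of the latter, upper-quartile scaling gave -0.058 for FTL and -0.026 for NCOA4 (DBIC against Ctrl), 0.0045 for IREB2 (DBIC+Hemin against DBIC), and 0.0098 for FTH1 and 0.040 for IREB2 (interaction). Library size alone gave -0.018 for FTL (DBIC against Ctrl), -5.84e-05 for FBXL5 (DBIC+Hemin against DBIC) and -0.022 for ACO1 (DBIC+Hemin against Ctrl). Fitting only the groups compared, DBIC+Hemin against Hemin called 1 of the 10 genes and 569 of all genes, with fewer libraries in the fit.

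Leaving out each library in turn, the 10 genes gave 4 to 5 calls in DBIC against Ctrl, 2 to 2 in Hemin against Ctrl, 3 to 5 in DBIC+Hemin against DBIC, 0 to 3 in DBIC+Hemin against Hemin, 2 to 4 in DBIC+Hemin against Ctrl and 1 to 2 in the interaction. Over all genes, the counts were 272 to 623 for Hemin against Ctrl (272 without Hemin replicate 2, against 580) and 612 to 934 for DBIC+Hemin against Hemin (612 without DBIC+Hemin replicate 1, against 971). Values that changed sign ranged, in DBIC against Ctrl, from -0.028 to 0.046 (FTL) and -0.067 to 0.021 (IREB2), and in Hemin against Ctrl from -0.11 to 0.037 (SLC25A37) and -0.12 to 0.022 (ACO1). In DBIC+Hemin against DBIC they ranged from -0.048 to 0.064 (FBXL5), -0.059 to 0.18 (STEAP3) and -0.027 to 0.046 (NCOA4), and in DBIC+Hemin against Hemin from -0.020 to 0.12 (ACO1) and -0.055 to 0.0083 (IREB2). In DBIC+Hemin against Ctrl they ranged from -0.040 to 0.047 (ACO1) and -0.23 to 0.016 (STEAP3), and in the interaction from -0.080 to 0.015 (FTH1) and -0.053 to 0.035 (IREB2).

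The share of higher calls among all genes moved with scaling: by upper-quartile factors from 53.8% to 40.0% (DBIC against Ctrl), 42.4% to 59.2% (DBIC+Hemin against DBIC) and 38.5% to 55.4% (interaction), and by library size alone from 54.6% to 42.3% (DBIC+Hemin against Hemin) and 45.6% to 34.4% (DBIC+Hemin against Ctrl). The causes were not tested. What the replicate numbers mark is not given in the sources used here. Same-numbered libraries deviated together with r of -0.0462 to 0.081 over 18 pairs. Differently numbered libraries did so with r of -0.0699 to 0.0763 over 36 pairs. These values gave no sign of pairing, but they cannot show that libraries were not handled in matched sets. With the replicate block the interaction called 1 of the 10 genes, ACO1 being lost (adjusted p = 0.0652), and 2 calls on SLC11A2 were lost, in DBIC+Hemin against DBIC and against Ctrl. Depth did not limit the levels of the 10 genes, since STEAP3, the lowest, stood far above the 3 counts that a count of 0 allows.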
